A study of Mus musculus with 2 samples.

Results

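The genes described here encode the subunits of the proteasome, with its regulators, as measured in mouse pancreas with and without conditional knockout of Nrdc, the gene of nardilysin. They were taken by symbol, as every gene of the families Psma, Psmb, Psmc, Psmd, Psme and Psmf except the interferon-induced subunits Psmb8 and Psmb9, and were found on the arrays through the RefSeq accession of each probe. The rule caught 51 genes of the RefSeq table, of which 44 had a matched probe and 42 were measured on both arrays, out of 12997 genes measured on both. Of the others, Psma8, a testis form of an alpha subunit, was well above background on the Nrdc-cKO array only, through 1 of its 2 probes, and its level there of -2.92 was under the lowest detected level on the WT array, so no fold is given. Psmb11, the thymus form of a catalytic subunit, was not well above background on either array. Psme2 and 6 pseudogenes had no probe matched by accession. Of the 42 measured genes, 40 belong to a role class of the proteasome, and 2 carry a subunit's name without being a subunit, namely Psmc3ip, a meiotic recombination factor, and Psme3ip1, a protein that binds Psme3.

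The series compared 1 WT with 1 Nrdc-cKO sample of pancreas, both from male C57BL/6 mice at 5 weeks of age, on 1 Agilent 1-colour array each. In the Nrdc-cKO mouse Ptf1a-Cre acts on floxed Nrdc alleles (Nrdc flox/flox), so the comparison asks about loss of nardilysin in the pancreas. Ptf1a is expressed in pancreatic progenitors and acinar cells, so recombination is limited to cells with that history, and other cells of the gland keep the gene. The labels give neither the Cre and floxed status of the WT sample nor whether animals were pooled. There were no replicates, so no test was possible, and every difference below describes these 2 arrays.

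The proteasome is the barrel-shaped protease that degrades ubiquitin-tagged proteins in the cytosol and nucleus. Its 20S core is built from rings of alpha subunits, which gate the entry, and rings of beta subunits, some of which are the proteases. The 19S cap recognises ubiquitin, removes it, and unfolds the substrate with a ring of ATPases, while the PA28 and PA200 activators can take the cap's place. Interferon exchanges the catalytic beta subunits for Psmb8, Psmb9 and Psmb10, which gives the immunoproteasome that makes peptides for MHC class I. In the acinar cell, which synthesises large amounts of secreted protein, the proteasome also degrades misfolded proteins that are drawn back out of the endoplasmic reticulum.

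Levels are log2 signals relative to the 75th percentile of the array, and differences are Nrdc-cKO minus WT on the log2 scale, so that 1.0 is 2-fold. The targeted gene Nrdc, read by 1 probe, had levels of 1.93 on WT and -1.28 on Nrdc-cKO, a difference of -3.21. Which exons are floxed is not stated, so it is unknown whether this probe lies inside the deletion. The median of all 12997 genes was -0.18, so a gene at about this value stood with the bulk. Signs are given on this scale, and the sign of many differences under 0.5 in size turned with another scaling, as set out at the end. Beside the proteasome genes, 21 of 22 acinar markers were at least 2-fold lower (median -1.76), and the summed signal of that list, in units of each array's 75th percentile, was 76753 on WT and 19056 on Nrdc-cKO. Macrophage markers were at least 2-fold higher in 12 of 13 measured (median 2.45, summed signal 36.4 and 135), islet markers in 14 of 16 (median 3.93, 386 and 3008) and fibroblast and stellate markers in 11 of 11 (median 1.91, 224 and 833). Smaller medians stood beside these for ductal (0.67, 13 genes) and endothelial (0.81, 8 genes) markers. The adipocyte median was 2.51 over 5 measured genes, with 5 more, Adipoq, Cfd, Plin1, Cidec and Car3, detected on Nrdc-cKO only. Few T cell (3), B cell (4), neutrophil (3) and Schwann or nerve (1) markers were measured on both arrays, with medians of -0.59, -0.14, -0.22 and 1.37, and a further 7, 4, 3 and 4 were detected on Nrdc-cKO only. Detection itself differed between the arrays, with 46.3% of spots well above background on WT and 60.3% on Nrdc-cKO. All marker values above are from the main setting. Spike-in scaling, set out at the end, raised every gene by the same 1.90, more than the size of the acinar median. With it the acinar median is thus no longer negative, while its distance from the median of all genes (-1.58) is unchanged. How far the lower acinar values depend on the other scalings was not tested. The part of these cell types in the proteasome values was not tested. In whole tissue, fewer cells of a type and less RNA per cell cannot be told apart.

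Most proteasome genes differed little between the arrays. The 42 measured genes had a median difference of -0.24, which is 0.05 below the median of all genes, and 38 of them were within 2-fold. Only 1 gene, Psme1, was at least 2-fold higher, and 3, Psmb10, Psme3 and Psmd6, were at least 2-fold lower, which is 2.38% and 7.14% of the genes. Over all genes these shares were 12.8% and 17.3%, or 30.1% either way. The middle 50% of the proteasome genes spanned 0.40 on the log2 scale, from -0.43 to -0.03, against 1.16 for all genes, from -0.75 to 0.41. A difference smaller than 0.5 either way was found in 30 of 42 proteasome genes (71.4%) and in 42.6% of all genes. Among bright probes only, the middle 50% spanned 0.40 for proteasome genes and 0.95 for all genes. With normexp and quantile scaling the spans were 0.38 and 0.77.

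**Figure D1:**
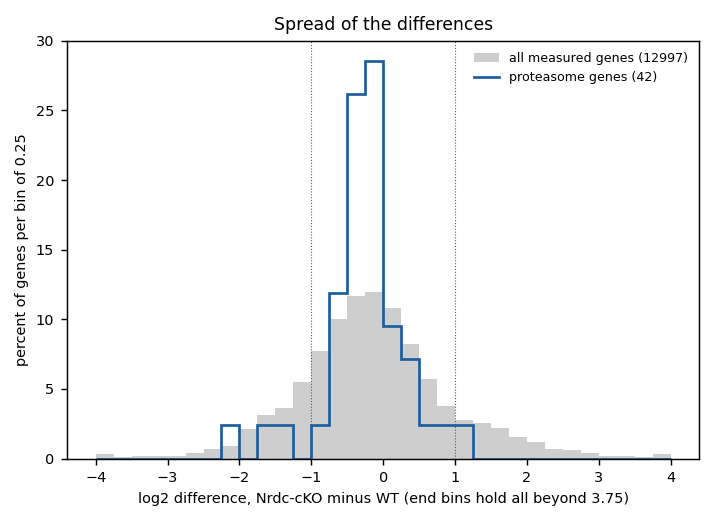
Histogram of log2 differences, Nrdc-cKO minus WT, in bins of 0.25, as the percent of 12997 measured genes (grey) and of 42 proteasome genes (blue line), with 2-fold marked by dotted lines. The proteasome genes form a narrow peak just below 0, with 3 genes below -1.0 and 1 above 1.0.

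The technical error was small beside the 3 differences past 2-fold downward. The scanner software's own error estimate gave a single-probe difference of these genes a standard error of 0.20 (median, up to 0.27), and the spots of 290 probes printed more than once differed by a median SD of 0.032. For the 19 genes with more than 1 detected probe the range between probes had a median of 0.18 and a maximum of 0.52, in Psmf1. Probes differed in sign in 0 of these 19 genes, and in 872 of 3933 genes over the whole array. None of these errors covers animals, dissection or RNA extraction.

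The alpha ring of the core kept close to the bulk of genes. All 7 measured alpha subunits were within 0.5 of 0, with a median of -0.23 and a range from -0.44 to 0.35. Psma7, with levels of 5.52 on WT and 5.08 on Nrdc-cKO, was the lowest at -0.44, and Psma2, with levels of 5.48 and 5.09, stood at -0.38. Between these ends lay Psma6 (4.08 on WT and 3.84 on Nrdc-cKO), Psma3 (4.13 and 3.90) and Psma4 (3.44 and 3.24), with differences of -0.24, -0.23 and -0.20. At the upper end Psma1, with levels of 3.17 and 3.52, stood at 0.35, and Psma5, with 3.60 and 3.70, at 0.11. Psma4 was measured by 4 probes, which lay between -0.26 and -0.15. These subunits form the gate of the barrel and none is a protease.

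**Figure D2:**
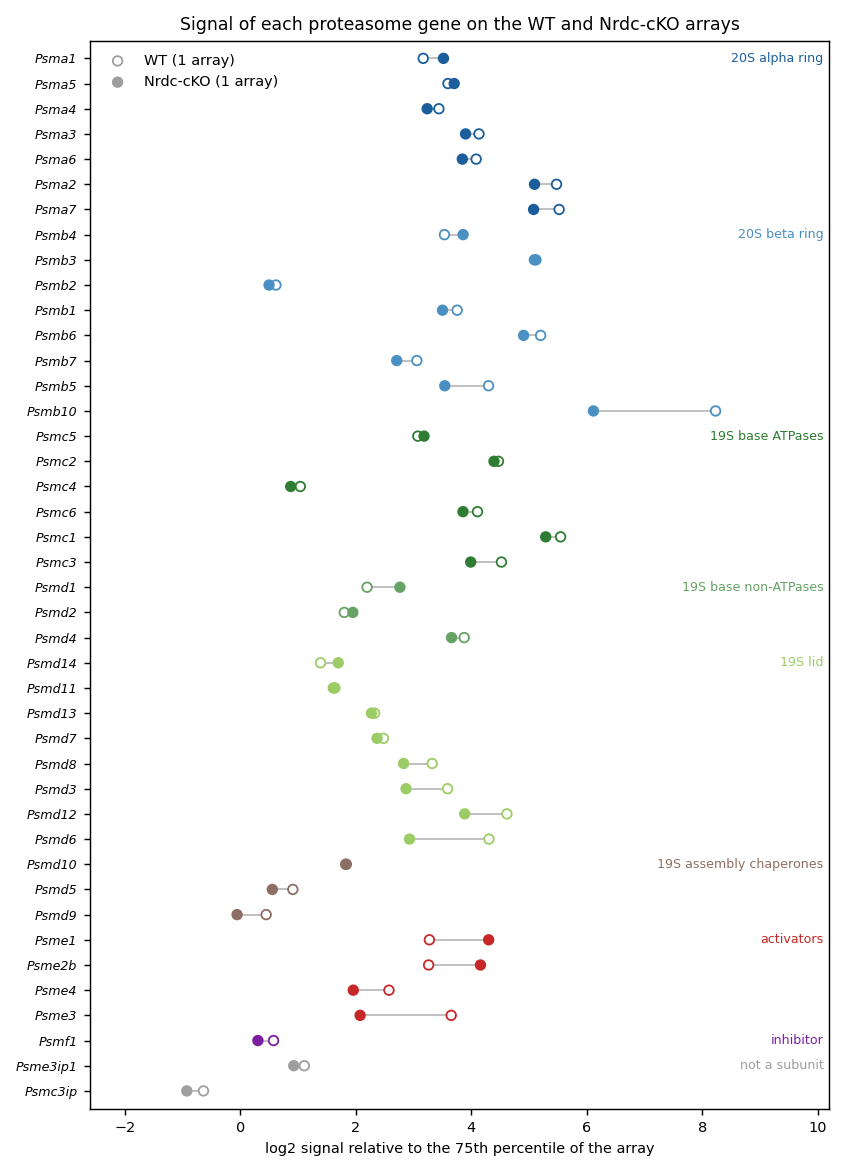
Level of each of the 42 measured genes on the WT array (open circles) and on the Nrdc-cKO array (filled circles), as log2 signal relative to the array's 75th percentile, grouped and coloured by role. The circles of most genes nearly touch, while Psmb10, Psmd6, Psme3, Psme1 and Psme2b have the longest lines. Levels are to be compared within a gene only, since each gene has its own probes.

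Among the beta subunits, 1 gene stood far from the others. Of 8 measured, 7 lay between -0.76 and 0.32, and Psmb10 was at -2.12. The highest was Psmb4, a structural subunit with levels of 3.53 on WT and 3.86 on Nrdc-cKO and a difference of 0.32 from 2 probes (0.31 and 0.34). Psmb3, also structural, was next, with levels of 5.12 and 5.09 and a difference of -0.03. The constitutive proteases were all below 0. Psmb5, the chymotrypsin-like site, had levels of 4.30 and 3.54 and a difference of -0.76, the lowest of any gene within 2-fold. Psmb7, the trypsin-like site, had levels of 3.06 and 2.71 (difference -0.35) and Psmb6, the caspase-like site, of 5.20 and 4.91 (difference -0.29). The sign of these last 2 turned with other scalings. Psmb5 stayed below 0, between -0.76 and -0.24, in all settings except spike-in scaling, where it stood at 1.14, under the median of all genes there (1.71). The remaining structural subunits Psmb1, with levels of 3.76 and 3.50, and Psmb2, with 0.62 and 0.50, stood at -0.25 and -0.12.

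Psmb10 is the interferon-induced form of the trypsin-like subunit. It had levels of 8.23 on WT and 6.11 on Nrdc-cKO, a 4.33-fold lower signal with an error-model standard error of 0.20 on the log2 scale, from 1 probe. Only 2.55% of all genes had a difference as low or lower. The other interferon-induced subunits, which the rule leaves out, stood on the opposite side. Psmb8 had levels of -0.19 on WT and 2.47 on Nrdc-cKO (difference 2.66), and Psmb9 of 0.84 and 2.28 (difference 1.45). Set against its constitutive counterpart, the induced form was 3.42 higher for the chymotrypsin-like pair Psmb8 and Psmb5 and 1.74 higher for the caspase-like pair Psmb9 and Psmb6, but 1.77 lower for the trypsin-like pair Psmb10 and Psmb7. These are differences of log2 differences, not ratios of transcripts, since each gene has its own probe. The signals of Psmb8, Psmb9 and Psmb10, each read by 1 probe, thus did not move together on these arrays.

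Psmb10 lies on chromosome 8 between Ctrl and Lcat, all on the same strand in the RefSeq annotation of GRCm38.p6, and overlaps neither. Ctrl, a chymotrypsin-like enzyme of acinar cells, had levels of 12.23 on WT and 7.87 on Nrdc-cKO, a difference of -4.36. Lcat, the plasma enzyme that esterifies cholesterol, had levels of -0.17 and -3.33, a difference of -3.16. Its Nrdc-cKO level was dim, under the lowest detected level on the WT array (-2.64). The next genes outward, Pskh1 beyond Ctrl and Slc12a4 beyond Lcat, stood at -0.23 and 1.68. Psmb10 and both of its direct neighbours were thus lower, each read by 1 probe, while the genes beyond them were not alike. Whether the Psmb10 probe takes up RNA from these neighbours was not tested. The promoter window of Psmb10, 250 bases before to 50 bases after its start (RefSeq, GRCm38.p6, chr8:105938343-105938642, minus strand), is shown because this gene differed most. It holds none of the 4 motifs searched, given further down, so no letter is in capitals.
Psmb10: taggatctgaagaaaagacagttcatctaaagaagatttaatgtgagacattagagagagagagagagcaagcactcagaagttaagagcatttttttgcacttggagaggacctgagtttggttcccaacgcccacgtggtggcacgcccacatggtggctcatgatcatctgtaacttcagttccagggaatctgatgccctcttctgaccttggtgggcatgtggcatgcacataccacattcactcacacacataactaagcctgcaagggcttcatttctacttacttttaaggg

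**Figure D3:**
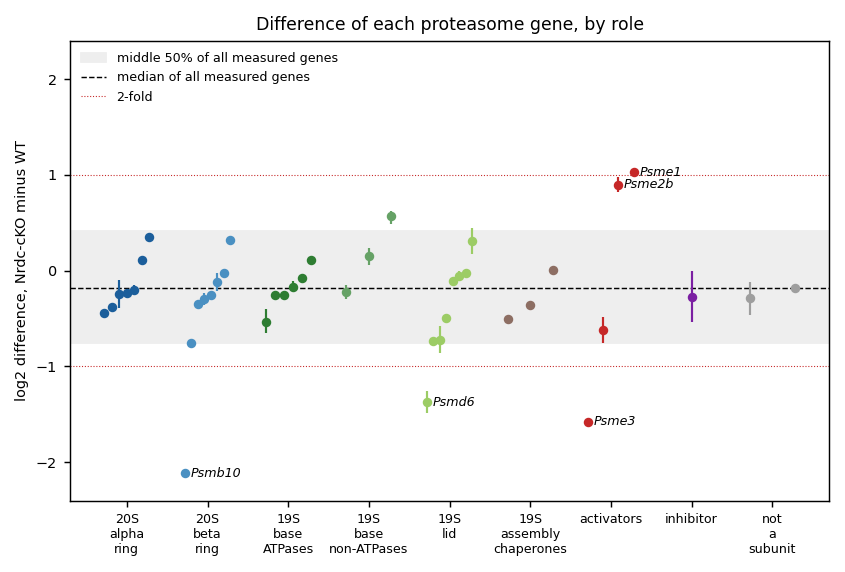
Log2 difference, Nrdc-cKO minus WT, of each measured gene by role, with vertical bars for the range between its probes where there are several. The grey band is the middle 50% of all measured genes (-0.75 to 0.41), the dashed line their median (-0.18), and the dotted lines 2-fold. The activators spread over the widest range, and Psmb10 and Psmd6 stand apart in the beta ring and the lid.

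The base of the cap, which unfolds substrates, was close to the bulk as well. All 6 ATPases were within 2-fold, with a median of -0.21. Psmc3 was the lowest, with levels of 4.52 on WT and 3.99 on Nrdc-cKO and a difference of -0.53 from 3 probes (-0.65 to -0.40), and Psmc1, with 5.55 and 5.29, was next at -0.26. The highest were Psmc5, with levels of 3.07 and 3.18, at 0.11, and Psmc2, with 4.47 and 4.39, at -0.08. Psmc6 (4.11 and 3.86) and Psmc4 (1.04 and 0.87) lay between, at -0.25 and -0.17. Of the base subunits that are not ATPases, the scaffold Psmd1 was the highest gene of core and cap, with levels of 2.19 and 2.76 and a difference of 0.57. Its 3 probes lay between 0.48 and 0.62. The other scaffold, Psmd2, had levels of 1.80 and 1.95 (difference 0.15), and the ubiquitin receptor Psmd4 of 3.88 and 3.66 (difference -0.22).

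The lid, which holds the deubiquitinase of the cap, was the more uneven part of the 19S particle. Its 8 subunits had a median of -0.30 and a middle 50% that spanned 0.67, against 0.16 for the ATPases. Psmd6, a structural lid subunit, had levels of 4.31 on WT and 2.93 on Nrdc-cKO, a difference of -1.38 (2.59-fold lower). All of its 3 probes were past 2-fold, from -1.49 to -1.26. Psmd12, with levels of 4.62 and 3.88, stood at -0.73, and Psmd3, with 3.59 and 2.87, at -0.72, its 2 probes being at -0.86 and -0.58. The deubiquitinase Psmd14 went the other way, with levels of 1.39 and 1.70 and a difference of 0.31 from 2 probes (0.17 and 0.44). Psmd11 (1.64 and 1.61) and Psmd13 (2.32 and 2.27) hardly differed, at -0.03 and -0.05. Psmd7, the partner of Psmd14, had levels of 2.48 and 2.37 and stood at -0.11, and Psmd8, with 3.32 and 2.83, at -0.50. The promoter window of Psmd6 (RefSeq, GRCm38.p6, chr14:14120896-14121195, minus strand), shown as the only cap gene past 2-fold, holds none of the motifs either.
Psmd6: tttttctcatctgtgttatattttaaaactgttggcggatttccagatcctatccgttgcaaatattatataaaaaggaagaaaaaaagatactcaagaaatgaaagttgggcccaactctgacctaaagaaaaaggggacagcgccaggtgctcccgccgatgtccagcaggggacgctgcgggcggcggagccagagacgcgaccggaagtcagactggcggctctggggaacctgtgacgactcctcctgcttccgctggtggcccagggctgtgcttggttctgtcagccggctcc

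Psmd5, Psmd9 and Psmd10, the chaperones that assemble the base and are not part of the finished particle, stood at -0.36, -0.50 and 0.01, each from 1 probe. Their levels were 0.91 on WT and 0.55 on Nrdc-cKO for Psmd5, 0.45 and -0.06 for Psmd9, and 1.82 and 1.84 for Psmd10. Both genes that are no subunits were near the median of all genes, Psmc3ip (-0.64 and -0.93) at -0.29 and Psme3ip1 (1.11 and 0.92) at -0.18.

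The activators were the most divided class, with 4 measured genes from -1.58 to 1.03 and none within 0.5 of 0. Psme1, the alpha chain of PA28 and an interferon-induced gene, had levels of 3.27 on WT and 4.30 on Nrdc-cKO, a difference of 1.03 with an error-model standard error of 0.20. It lies just past 2-fold, and this error reaches below that threshold. Psme2b, a gene very like Psme2, the beta chain of PA28, lay just inside, with levels of 3.26 and 4.16 and a difference of 0.90 from 2 probes (0.82 and 0.98). It was past 2-fold, at 1.06 to 1.39, under 6 of 9 alternative settings. Transcripts of Psme2 and Psme2b cannot be told apart here. The gap between Psme1 and Psme2b, both higher, was smaller than the error of Psme1.

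Psme3, which forms the nuclear PA28 on its own, was lower. Its levels were 3.65 on WT and 2.07 on Nrdc-cKO, a difference of -1.58 (2.98-fold lower) with an error-model standard error of 0.20, from 1 probe. Psme4, the nuclear activator PA200, had levels of 2.57 and 1.96 and a difference of -0.62, with its 2 probes at -0.75 and -0.49. Psmf1, an inhibitor of the core in the test tube, had levels of 0.58 and 0.30 and stood at -0.27, with probes at -0.53 and -0.01. Psme1 and Psme2b thus lay above the median of all genes, and the nuclear activators Psme3 and Psme4 below it.

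The promoter windows of Psme1 (RefSeq, GRCm38.p6, chr14:55578244-55578543, plus strand) and Psme3 (chr11:101315963-101316262, plus strand) are shown as those of the activators past 2-fold in opposite directions. The capitals mark the letters of an interferon-stimulated response element in Psme1 (GAAA, any 2 bases, GAAA), where they lie on the other strand from base 10 after the start, and CCAAT in Psme3, likewise on the other strand, from base -14.
Psme1: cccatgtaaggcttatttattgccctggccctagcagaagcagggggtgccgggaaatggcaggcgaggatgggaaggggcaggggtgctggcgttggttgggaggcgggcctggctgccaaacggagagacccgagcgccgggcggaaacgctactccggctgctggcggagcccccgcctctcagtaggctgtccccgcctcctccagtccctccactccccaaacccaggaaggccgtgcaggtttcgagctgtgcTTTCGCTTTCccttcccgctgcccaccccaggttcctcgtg
Psme3: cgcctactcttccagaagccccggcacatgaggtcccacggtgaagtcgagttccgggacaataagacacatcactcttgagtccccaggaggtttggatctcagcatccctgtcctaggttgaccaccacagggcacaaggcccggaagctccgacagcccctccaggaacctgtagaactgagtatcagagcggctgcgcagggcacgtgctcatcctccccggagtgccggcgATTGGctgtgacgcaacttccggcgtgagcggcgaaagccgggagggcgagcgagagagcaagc

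The core, the cap and the activators were then compared. The core had a median of -0.24 over 15 genes and the cap of -0.17 over 17, a gap of -0.07, which lay between -0.13 and 0.01 over all settings and so changed sign with the processing. The middle 50% spanned 0.29 in the core and 0.47 in the cap. Either class had 1 gene at least 2-fold lower (6.67% of the core and 5.88% of the cap), and 0 of their 32 genes were 2-fold higher. Of all genes, 17.3% were at least 2-fold lower and 12.8% at least 2-fold higher. The activators had a median of 0.14 with a middle 50% that spanned 1.79. Without Psmb10 the core median was -0.24 as well, though a median shifts little when 1 extreme gene is left out. At 1.5-fold, 2 members (4.76%) were higher and 7 (16.7%) lower, against 20.1% and 31.3% of all genes.

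A total of 4 motifs were looked for in the promoter windows, on both strands and without exclusion of overlaps. Of the 42 measured genes 36 had a window, among 27025 genes with one. TGACNNNGC, the core of the antioxidant response element through which Nfe2l1 drives subunit genes when proteasome activity falls, was in 6 of 36 (16.7%) and in 14.0% of all genes. CCAAT was in 14 (38.9%, against 41.1%). The response element marked in Psme1 was in 4 (11.1%, against 3.99%), namely Psme1, Psmd4, Psmd9 and Psmb3, of which only Psme1 was past 2-fold. TTCNNNGAA, the letters of a gamma-activated site, was in 1, Psmd2 (2.78%, against 9.55%). A match describes the letters only, and elements outside these windows were not looked at.

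The other genes of the pathway, 52 measured in 7 lists, had a median of -0.34 and a middle 50% that spanned 0.98, between the 0.40 of the proteasome genes and the 1.16 of all genes. Of these, 5 (9.62%) were past 2-fold upward and 7 (13.5%), Nrdc included, downward, below the 12.8% and 17.3% of all genes. Assembly factors of the core were within 2-fold in 5 of 5, with Psmg4 highest at 0.79 and Psmg1 lowest at -0.76. The deubiquitinase Uchl5, which binds the cap, was 2-fold lower as 1 of 8 cap-bound proteins, with levels of 4.54 on WT and 2.67 on Nrdc-cKO and a difference of -1.87. Usp14, the other deubiquitinase that binds the cap, stood at 0.13 and the ubiquitin receptor Adrm1 at -0.43. Of 10 measured shuttles and unfoldase subunits, 8 were below the median of all genes, and their own median was -0.70. Of these Ubqln4, a ubiquitin-binding shuttle, was past 2-fold at -1.22, while the unfoldase Vcp stood at -0.77. Ubqln4 was read by 1 of its 2 probes, at levels of -0.74 on WT and -1.96 on Nrdc-cKO. No gene of this list was 2-fold lower in the value table, with either normexp setting, with no filter or among bright probes only.

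Among 9 measured genes linked to transcription of the subunits, Nfe2l1 was at 0.18, with its 2 probes at -0.15 and 0.52. Its relative Nfe2l2, the factor of the oxidative stress response, was higher, with levels of 1.94 on WT and 3.08 on Nrdc-cKO and a difference of 1.14. Ngly1, the glycanase that processes Nfe2l1, was lower, with levels of 2.29 and 0.72 and a difference of -1.57. Ubb, a polyubiquitin gene, had levels of 8.42 and 8.21 (difference -0.21), and Uba1, the main ubiquitin-activating enzyme, of 2.82 and 2.28 (difference -0.54).

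Genes of interferon signalling and peptide transport were above 0 in 7 of 7 measured, as were 5373 of the 12997 genes. Of the 7, 4 (57.1%) were at least 2-fold higher, against 12.8% of all genes. The transporter Tap1 stood at 1.80, the transcription factor Irf1 at 1.52, and the receptor chain Ifngr1 at 1.35. Ifngr2 (0.33) and Tap2 (0.56) were within 2-fold, and Ifng and Nlrc5 were detected on Nrdc-cKO only. Tap1, Irf1 and Tap2 were each read by 1 of their 2 probes. The 2 probes of Tapbp, a loading factor in this list, differed in sign (-0.07 and 1.08). Tap1 and Psmb9 start next to each other on opposite strands, with promoter windows that share 275 bases. Of 8 measured peptidases that trim or degrade proteasome products, 3 were at least 2-fold lower, against 17.3% of all genes. This count was 2 under 5 of 9 alternative settings and 0 of 5 among bright probes only. 1 of the 3 is the targeted gene Nrdc, and the others were Thop1, with levels of 1.92 on WT and 0.15 on Nrdc-cKO and a difference of -1.77, and Ide at -1.03, which belongs to the same metallopeptidase family as Nrdc.

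**Figure D4:**
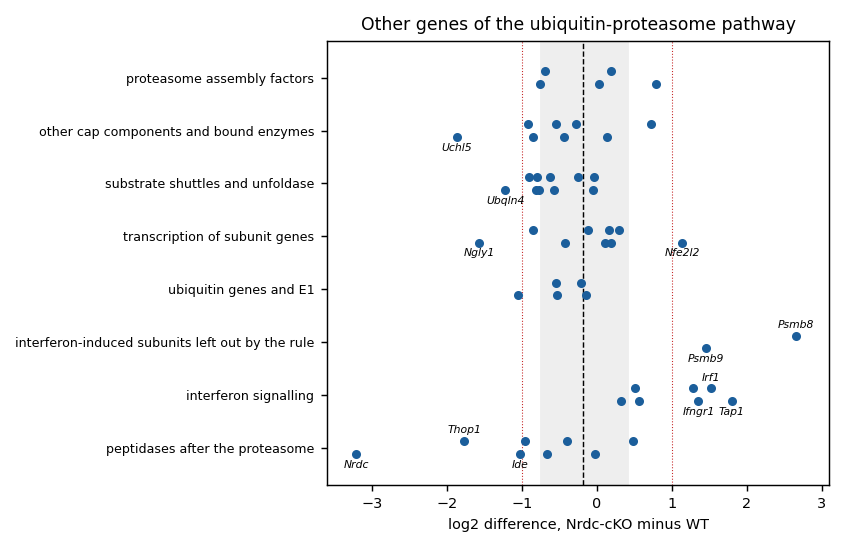
Log2 difference, Nrdc-cKO minus WT, of each measured gene in 8 lists of the pathway around the proteasome, 1 point per gene, with names for the genes past 2-fold that the text describes. The grey band and dashed line are the middle 50% and median of all measured genes, and the dotted lines mark 2-fold. The interferon lists lie to the right and the shuttles and peptidases mostly to the left.

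The direction of the small differences depended on how the arrays were scaled. Of the 42 genes, 19 kept their sign under 9 alternative settings (8 for Psmd9, which is not among the bright probes) and 23 changed it under at least 1, none of the latter being past 0.50 in size. The genes that kept their sign were 10 higher and 9 lower ones, among them Psme1 and Psme2b, and Psmb10, Psme3, Psmd6, Psmb5, Psmd3 and Psmd12. Psmb10 lay between -2.12 and -1.38 under these alternatives, Psme3 between -1.58 and -1.01, Psmd6 between -1.38 and -0.84, and Psme1 between 1.03 and 1.52. With scaling to the E1A spike-in controls, chosen after the data were seen, the median of all genes moved by 1.90. With it 41 of the 42 genes were above 0, all except Psmb10 at -0.22, and Psmd6 (0.52) and Psme3 (0.32) were above 0 but under the median of all genes there, 1.71. Relative to the median of all genes, the proteasome median lay between -0.05 and 0.29 in these settings.

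**Figure D5:**
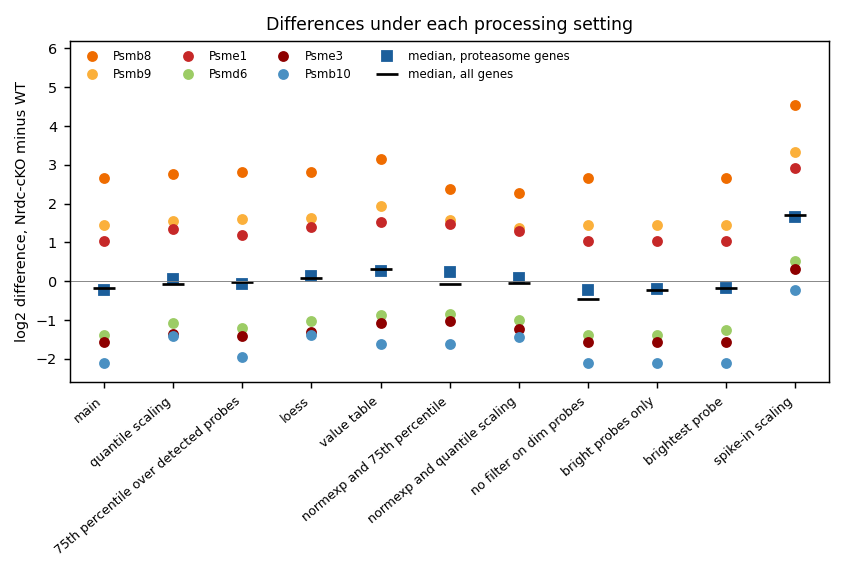
Log2 difference, Nrdc-cKO minus WT, of 6 named genes, of the median of the measured proteasome genes and of the median of all genes, under the main setting, 9 alternatives and spike-in scaling. Relative to the median of all genes, the proteasome median lies between -0.05 and 0.29, the highest being with normexp and the 75th percentile. Psmb8, Psmb9 and Psme1 lie above both medians and Psmd6, Psme3 and Psmb10 below both. Psmb8 has no value among bright probes only.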

How the data were processed

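Total RNA of pancreas was labelled with Cy3 and hybridised to 1 array per group, per the labels, and groups were taken from the sample titles. The deposited scanner files give a processed intensity per spot, corrected for background and spatial trend but not scaled between arrays, per the file headers (Agilent Feature Extraction 12.0.3.1; the submitters' processing notes give 11.5.1.1). In the value table that the authors deposited, each value is this intensity times 1 constant per array (4.37 for WT, 1.92 for Nrdc-cKO), linear and not centred, with medians of 42.5 and 66.0. Spots well above background were 46.3% on WT and 60.3% on Nrdc-cKO, and no spot was saturated.

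Outlier spots (80 and 74) were left out, log2 signals were averaged over the spots of a probe, and each array's 75th percentile over 56604 probes was subtracted (Python 3.11.15). Detection of a probe needed a share of 0.5 or more of spots flagged well above background. The difference of a gene is the mean over probes detected on both arrays. The error-model standard error of a gene treats its probes as independent. Of 35885 probes with a RefSeq accession, 32988 (91.9%) were named through the RefSeq table of GRCm38.p6, and 23616 probes were unnamed. Coordinates are given for RefSeq promoter windows only, because the probes were designed on an older build. Named were the highest and lowest genes of each role class, those past 2-fold or changing sign, and pathway genes past 2-fold (some are not reported here), with a few chosen after their values were seen. The members and lists were chosen with earlier results of these data known. Normexp used limma 3.58.1 with an offset of 50, on the median signal. The gene step was tested on simulated data.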

Additional observations from a re-analysis of the deposited data

How the results depend on the processing

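No paired analysis was possible because neither group held more than 1 array, and no replicate could be left out. A value counts as moved when it changed by more than 0.18, the median SD between probes of a gene. The median of the members, -0.24 in the main setting, was 0.070 with quantile scaling, 0.13 with loess, 0.26 in the value table, 0.23 and 0.081 with normexp followed by the 75th percentile or quantile scaling, and 1.66 with spike-in scaling. Its distance from the median of all genes, -0.05, was 0.14 with quantile scaling, 0.29 with normexp and the 75th percentile and 0.22 with no filter on dim probes. The count of members 2-fold higher went from 1 to 2 with quantile scaling, loess, a 75th percentile of detected probes, either normexp setting or a 1.5-fold threshold, to 3 in the value table and to 39 with spike-in scaling. The count of members 2-fold lower went from 3 to 2 for both the value table and normexp scaled on its 75th percentile, where Psmd6 stood at -0.88 and -0.84, to 4 with no filter, to 7 at 1.5-fold, by construction, and to 0 with spike-in scaling. The gap between core and cap lay between -0.13 and 0.01 in all settings. Nrdc stayed lower, at -2.71 (value table), -2.23 and -2.20 (normexp) and -1.31 with spike-in scaling. Spike-in scaling turned Psmd6 to 0.52 and Psme3 to 0.32. Leaving out both genes that are not subunits, added after the data were seen, changed no count. Over the whole array, the share of higher genes among all past 2-fold was 42.5%, against 27.9% unfiltered, 48.2% after quantile scaling, 52.1% and 58.1% after normexp, 53.0% scaled on detected probes, 60.1% after loess, 72.9% in the value table and 98.9% with spike-ins. Their number, 1666, became 10379, 2888, 3108 and 557 with spike-in scaling, the value table, no filter and bright probes only, and the 2250 lower genes became 115, 1074, 8012 and 1104, and 1376, 1146 and 846 with loess and both normexp settings. Apart from the changed threshold or filter itself, the cause was not tested.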
